A study of Mus musculus with 9 samples.

Results

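Myc and the genes of its MAX network were examined in RAW264.7 cells, a mouse macrophage line transformed by a leukemia virus. The network was taken as 10 genes, Myc, Max, Mxd1, Mxd3, Mxd4, Mxi1, Mnt, Mga, Mlx and Mycl, found by their symbols among the 28137 Ensembl genes of the expression table. All 10 were in the table. The genes were chosen by the FPKM of Myc after RAB6A siRNA against NC, where Myc was far lower. Values of the network in that comparison are therefore given as a description without p-values, and counts past the threshold stand there only beside the share of all genes. The comparison of SFRP2 siRNA with NC did not enter the choice and was tested.

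Myc encodes a basic helix-loop-helix leucine zipper protein that binds DNA only as a dimer with MAX. The dimer binds the E-box CACGTG and activates genes of ribosome production, metabolism and growth. MAX also pairs with the MXD proteins, MXI1, MNT and MGA, which bind the same E-box. MXD proteins, MXI1 and MNT bring in the SIN3 and histone deacetylase corepressors, and MGA belongs to a Polycomb complex named PRC1.6. MLX is the partner in a parallel network of the glucose-responsive MLXIP and MLXIPL, and can pair with some MXD proteins and MNT. In macrophages, Myc is known as a gene of proliferation and of the alternatively activated state, and inflammatory stimulation changes the levels of Myc and the Mxd genes.

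RNA-seq was performed on 9 libraries, of which 3 were labeled NC siRNA (the control siRNA), 3 SFRP2 siRNA and 3 RAB6A siRNA. SFRP2 is a secreted modulator of Wnt signaling and RAB6A a small GTPase of Golgi transport. All cells, NC included, received 60 nM siRNA for 6 h, and after a further 12 h were given 100 ng/ml lipopolysaccharide (LPS) for 24 h. There was no group without LPS. This is as the labels have it. The methods of the study give another siRNA dose, a longer time after transfection and IFN-γ beside LPS, and which of the accounts holds for these libraries was not settled. The library titles hold the cell line, the group with a replicate number and 6H, and what 6H stands for is not stated. Nor is it stated whether the libraries came from separate cultures or received different siRNAs, so p-values measure the spread between these libraries. In a population of cells, fewer expressing cells and less RNA per cell cannot be told apart.

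The E-box CACGTG, which reads the same on both strands, was searched in the promoters of the network, from 250 bases before to 50 bases after the start site. Promoters of 9 of the 10 genes were in the RefSeq table (GRCm38.p6), and those of 4 genes held the motif. Myc was the gene without a promoter in this table, so it was not searched. These 4 are shown from 250 bases before to 30 bases after the start, 5′ to 3′ on the strand of the gene, with the E-box in capitals, because they carry the sequence that the network itself binds. Max lies at chr12:76962219-76962498 (- strand), Mnt at chr11:74830674-74830953 (+ strand), Mxd4 at chr5:34187681-34187960 (- strand) and Mlx at chr11:101087040-101087319 (+ strand).
Max: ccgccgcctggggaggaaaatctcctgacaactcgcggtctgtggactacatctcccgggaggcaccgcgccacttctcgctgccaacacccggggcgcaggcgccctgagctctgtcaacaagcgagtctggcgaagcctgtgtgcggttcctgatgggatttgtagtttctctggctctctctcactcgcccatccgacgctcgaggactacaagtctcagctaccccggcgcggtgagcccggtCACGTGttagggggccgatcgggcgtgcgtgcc
Mnt: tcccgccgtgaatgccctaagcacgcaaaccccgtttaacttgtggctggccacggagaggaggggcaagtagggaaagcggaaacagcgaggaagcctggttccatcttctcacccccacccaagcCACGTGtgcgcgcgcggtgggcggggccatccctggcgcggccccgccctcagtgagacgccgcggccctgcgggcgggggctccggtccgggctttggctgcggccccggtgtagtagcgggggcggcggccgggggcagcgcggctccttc
Mxd4: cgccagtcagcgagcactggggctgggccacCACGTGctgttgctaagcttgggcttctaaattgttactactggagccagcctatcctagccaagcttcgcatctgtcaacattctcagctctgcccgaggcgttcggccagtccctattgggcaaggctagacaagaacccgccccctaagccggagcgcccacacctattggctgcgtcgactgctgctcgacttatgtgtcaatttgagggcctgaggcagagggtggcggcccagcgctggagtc
Mlx: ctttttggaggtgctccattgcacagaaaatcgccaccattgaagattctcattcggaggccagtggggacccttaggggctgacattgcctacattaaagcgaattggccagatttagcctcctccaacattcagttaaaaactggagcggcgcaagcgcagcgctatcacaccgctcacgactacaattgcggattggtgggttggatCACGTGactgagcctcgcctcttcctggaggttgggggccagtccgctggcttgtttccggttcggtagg
The E-box of Max begins 3 bases before the start site, that of Mlx 40 bases, that of Mnt 123 bases and that of Mxd4 219 bases before it. The promoters of Mxd1, Mxd3, Mga and Mycl and the 3 promoters of Mxi1 did not hold these letters in this window. Of all 32851 promoters of the table, 7.15% held the motif, as did 12.1% of the genes tested after RAB6A siRNA that had a promoter in the table. A match is a description of sequence, and binding was not measured.

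Depth was 41608379 to 47149258 reads in the NC libraries, 34743304 to 40562562 after SFRP2 siRNA and 32758729 to 37833882 after RAB6A siRNA. Rab6a itself was 25.7 ± 1.48 FPKM in NC and 20.75 ± 0.445 after RAB6A siRNA (SD, n = 3), a log2 fold change of -0.31 (SE 0.06, adjusted p = 0.0024, limma). After correction for GC content and gene length this value was -0.03 (adjusted p = 0.715), so the knockdown of Rab6a was not seen in all settings. Sfrp2 lay under 0.05 FPKM on average in each group, so its knockdown could not be checked. Of 11 macrophage markers, 10 reached 0.5 FPKM in all 9 libraries, the exception being Mertk. No marker of fibroblasts, epithelium, endothelium, T cells, B cells or neutrophils exceeded 1.32 FPKM in any library. The summed level of 6 LPS response genes was 4329 to 4616 FPKM in NC, 4059 to 4245 after SFRP2 siRNA and 2461 to 2635 after RAB6A siRNA, and the mitochondrial transcript mt-Co1 took 3.49 to 3.88%, 3.81 to 4.29% and 8.63 to 9.74% of reads. Both moved with the RAB6A siRNA group, and their part in the results below was not tested.

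In NC cells, Myc and Max were the most expressed members. On the FPKM scale, which is per length of transcript, Myc was at 92.1 ± 1.08, Max at 66.4 ± 1.14 and Mlx at 29.15 ± 1.88 (SD, n = 3). The MAX-bound repressors were lower, with Mnt at 9.88, Mga at 6.88, Mxd1 at 6.42 and Mxi1 at 4.62 FPKM on average. Only the ranges of Mga and Mxd1 overlapped among neighbours in this order. Mxd3 (0.471 FPKM), Mxd4 (0.314 FPKM) and Mycl (0.0750 FPKM) were near the lower limit of the data. The order of the means was the same after SFRP2 siRNA, where the ranges of Mxd1 and Mxi1 and those of Mxd3 and Mxd4 overlapped. After RAB6A siRNA the order was Max, Mlx, Mnt, Mxd1, Mxi1, Mga, Myc, Mxd4, Mxd3 and Mycl, with separate ranges at each step. Myc thus moved from the highest to the 7th place among the 10 genes.

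**Figure D1:**
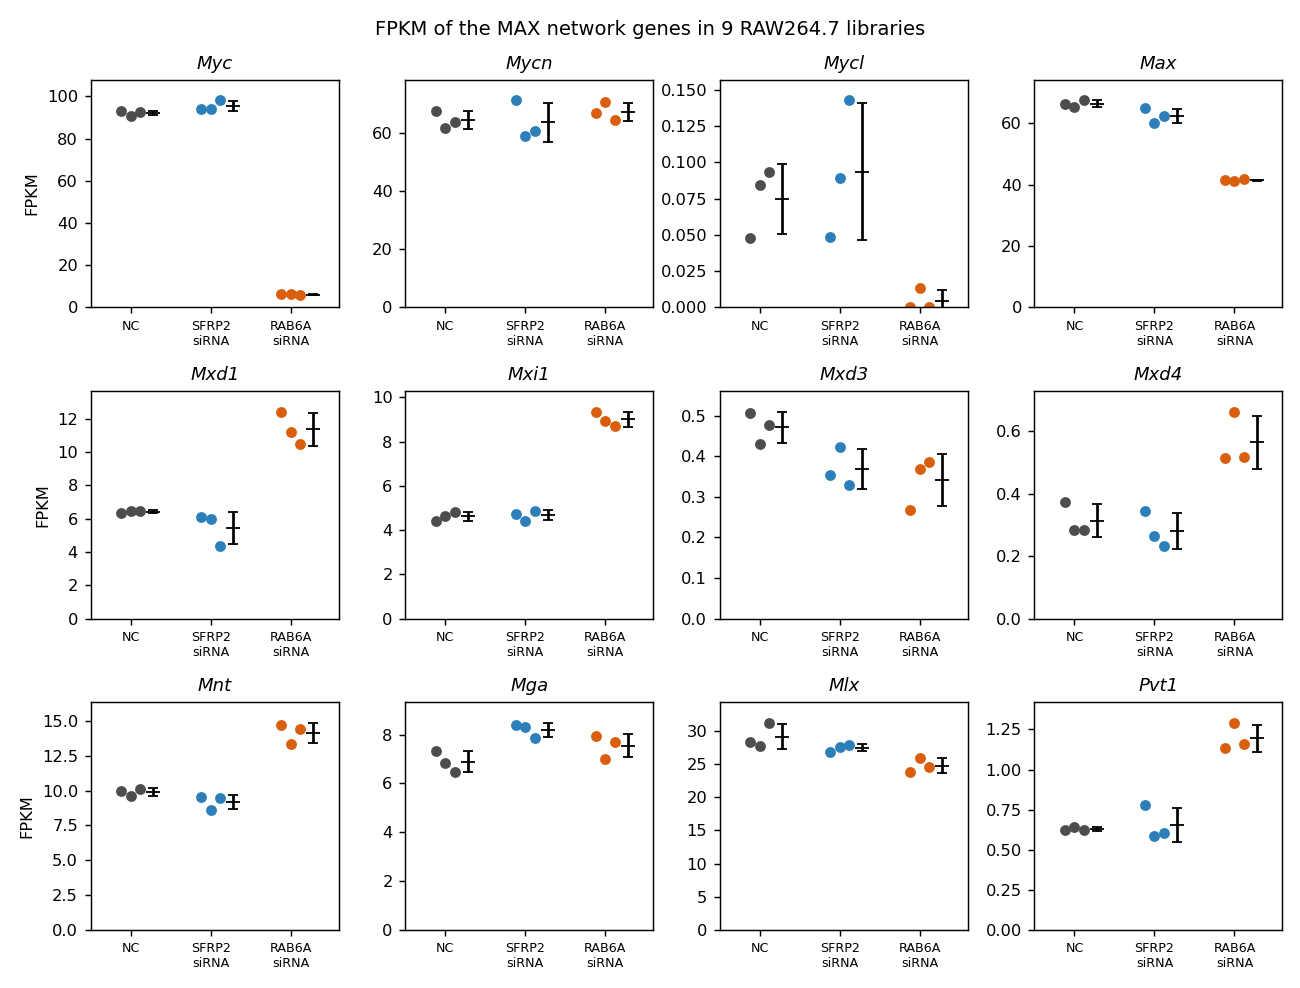
FPKM (y axes, each from 0) of the 10 network genes, of the MYC family gene Mycn and of the noncoding neighbour Pvt1 in each of 3 libraries per group (points), with mean ± SD beside them. Myc, Max, Mlx, Mxd3 and Mycl were lower after RAB6A siRNA than in NC, Mxd1, Mxi1, Mxd4, Mnt and Pvt1 were higher, and Mga and Mycn overlapped with NC.

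Among the 7 members with a mean of at least 0.5 FPKM, Myc had the largest log2 fold change between RAB6A siRNA and NC. Its level was 93.0, 90.9 and 92.5 FPKM in the NC libraries and 6.32, 6.16 and 5.76 FPKM after RAB6A siRNA. The groups were far apart and each varied little. In reads, this was 10513 to 11648 against 513 to 633 per library. The mean was 15.15-fold lower, a log2 fold change of -3.90 (SE 0.06). Among the 12712 genes tested in this comparison, 11 had a lower log2 fold change than Myc and 128 a larger absolute one. Direct targeting of Myc by the RAB6A siRNA was not tested.

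Mycn did not share this difference, and Mycl was lower at very few reads. Mycn, a close relative of Myc that binds the same sites with MAX and is not among the 10 genes, was at 67.8, 61.7 and 63.9 FPKM in NC and at 66.8, 70.6 and 64.6 FPKM after RAB6A siRNA. The ranges overlapped, and the log2 fold change was 0.06 (95% interval -0.08 to 0.21, adjusted p = 0.375, limma), or 0.20 (adjusted p = 0.0116) after the GC and length correction. Mycl, the third family gene, had 8, 16 and 16 reads in NC, 8, 14 and 20 reads after SFRP2 siRNA and 0, 2 and 0 reads after RAB6A siRNA. A count of 0 allows up to 3 reads, or 0.0204 and 0.0227 FPKM in the libraries at 0 (counting error only), and no fold change is given. Of the summed FPKM of Myc, Mycn and Mycl, Myc made up 58.8% ± 0.892 in NC and 8.28% ± 0.323 after RAB6A siRNA (SD, n = 3). Pvt1, a noncoding gene beside Myc on chromosome 15, was included here for this position. It was higher after RAB6A siRNA, at 1.195 ± 0.0847 against 0.630 ± 0.0112 FPKM (log2 fold change 0.83, SE 0.15, adjusted p = 0.00173, limma, or 0.41 with quantile normalization). Part of Pvt1 overlaps the exons of H2afy3 on the other strand, and it is not stated whether strand was used in counting.

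Max, the shared partner, was at 66.4, 65.2 and 67.5 FPKM in NC and at 41.4, 41.4 and 41.7 FPKM after RAB6A siRNA. All 3 libraries were lower than NC, with a log2 fold change of -0.68 (SE 0.05), which was -0.36 after the GC and length correction. Mlx, the partner in the parallel network, was at 28.4, 27.8 and 31.3 FPKM in NC and at 23.9, 26.0 and 24.6 FPKM after RAB6A siRNA. Here too the groups did not overlap, and the log2 fold change was -0.23 (SE 0.07), or -0.10 with quantile normalization and -0.14 with the GC and length correction. Part of the exons of Mlx overlaps Psmc3ip on the other strand, so that these reads are uncertain.

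The MAX-bound repressors Mxd1, Mxi1 and Mnt differed in the opposite direction to Myc and Max. Mxd1, which rises as many cell types stop dividing, was at 6.34, 6.45 and 6.48 FPKM in NC and at 12.4, 11.2 and 10.5 FPKM after RAB6A siRNA. Its mean was 1.77-fold higher, with a log2 fold change of 0.81 (SE 0.08). Mxi1, also known as Mxd2, was at 4.41, 4.63 and 4.82 FPKM in NC and at 9.36, 8.94 and 8.69 FPKM after RAB6A siRNA, which was 1.95-fold higher with a log2 fold change of 0.95 (SE 0.07). Mnt, the most broadly expressed of the MXD-like repressors, was at 9.94, 9.58 and 10.1 FPKM in NC and at 14.7, 13.3 and 14.4 FPKM after RAB6A siRNA. The difference of Mnt was smaller, at 1.43-fold and a log2 fold change of 0.51 (SE 0.06). In all 3 genes, the lowest RAB6A siRNA library was above the highest NC library.

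Mga was at 7.32, 6.85 and 6.48 FPKM in NC and at 7.93, 7.01 and 7.69 FPKM after RAB6A siRNA. These ranges overlapped, with a log2 fold change of 0.13 (SE 0.08), or 0.28 after the GC and length correction. Mxd3 and Mxd4 were under the filter of a mean of 0.5 FPKM, and are given by their levels alone. Mxd3, an MXD gene of the S phase, was at 0.507, 0.430 and 0.477 FPKM in NC and at 0.267, 0.368 and 0.387 FPKM after RAB6A siRNA, from 23 to 50 reads per library. Part of its reads may belong to Prelid1, whose exons overlap on the other strand. Mxd4, known from differentiating cells, was at 0.374, 0.283 and 0.286 FPKM in NC and at 0.516, 0.664 and 0.518 FPKM after RAB6A siRNA, from 103 to 213 reads. Thus Mxd3 lay lower and Mxd4 higher without overlap, at very low levels.

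Of the 7 members that passed the filter, 6 passed an adjusted p under 0.05 in this comparison, as did 74.1% of all genes tested (75.8% with voom on recovered reads). They were 3 higher (Mxd1, Mxi1 and Mnt) and 3 lower (Myc, Max and Mlx), where 37.6% of all genes were called higher and 36.5% lower. Past an absolute log2 fold change over 1 in addition was 1 member, Myc, as were 30.1% of all genes, 17.3% upward and 12.8% downward. Over all 10 genes, 4 were higher and 5 lower than NC without overlap. Among the 7 past the filter, these were 3 and 3. Of all genes tested, 39.2% lay higher and 38.2% lower in this way (77.4% together). Since this contrast chose the genes, nothing is read from these counts.

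**Figure D2:**
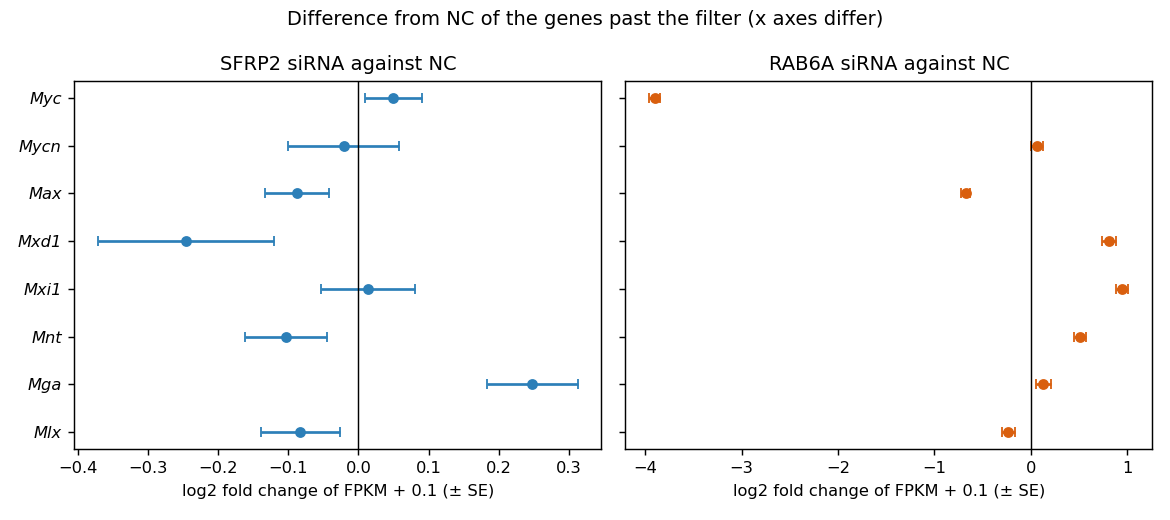
Log2 fold change of FPKM + 0.1 against NC (x axes, which differ) with its SE for the 7 members past the filter and for Mycn, after SFRP2 siRNA on the left and RAB6A siRNA on the right. After RAB6A siRNA, Myc lies at -3.90 and the 3 repressors Mxd1, Mxi1 and Mnt lie between 0.51 and 0.95, while after SFRP2 siRNA all values lie between -0.25 and 0.25.

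Ratios between members within a library do not depend on a scaling factor per library. FPKM of Myc per FPKM of Max was 1.39 ± 0.0159 in NC and 0.147 ± 0.00751 after RAB6A siRNA (SD, n = 3). That of Mycn per Max was 0.971 ± 0.0430 in NC and 1.62 ± 0.0793 after RAB6A siRNA, with Max lower. The summed repressors (Mxd1, Mxd3, Mxd4, Mxi1, Mnt and Mga) per Max were 0.431 ± 0.00552 in NC and 1.035 ± 0.0483 after RAB6A siRNA. By library, this ratio was 1.091, 1.003 and 1.011 after RAB6A siRNA and 0.4349, 0.4327 and 0.4245 in NC. The repressor transcripts were thus about level with those of Max after RAB6A siRNA and below them in each NC library. These ratios were not corrected for GC content and gene length. The summed MYC family genes per summed repressors were 5.48 ± 0.0800 in NC and 1.71 ± 0.1215 after RAB6A siRNA, so the MYC family transcripts still outnumbered the repressors. These are ratios of transcripts, and protein was not measured.

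**Figure D3:**
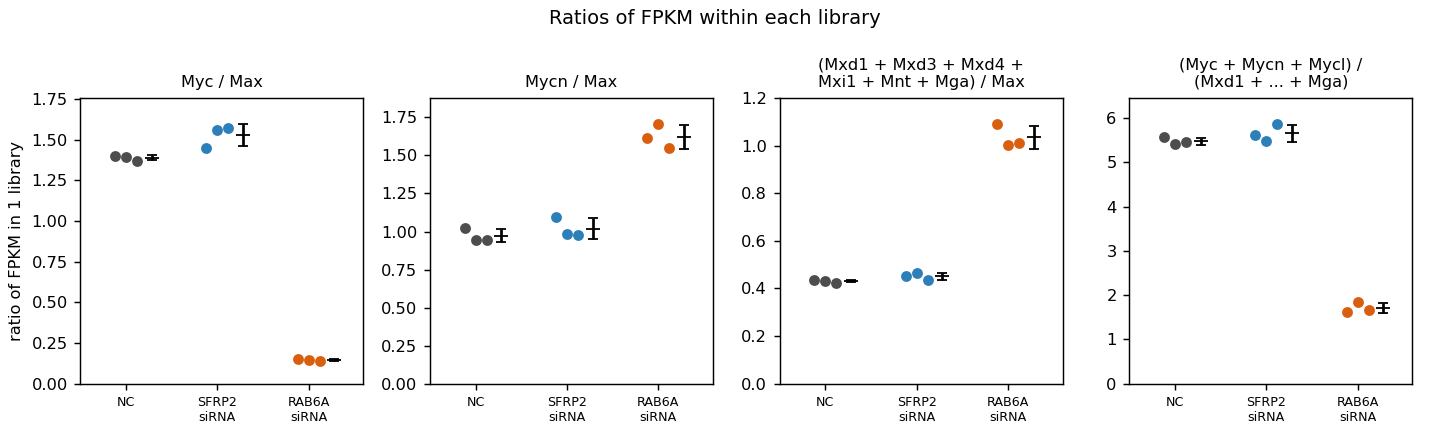
Ratios of FPKM within each library (y axes, from 0) for Myc per Max, Mycn per Max, the 6 summed repressors per Max, and the summed MYC family genes per summed repressors, with mean ± SD of 3 libraries per group. The NC and SFRP2 siRNA libraries lie close together, with means of 1.39 and 1.53 for Myc per Max, while RAB6A siRNA lies at 0.147.

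After SFRP2 siRNA, no member of the network passed the test. Of the 7 members tested, 0 had an adjusted p under 0.05 in limma, as did 0% of all 12017 genes tested, and 1 (Mga) had an unadjusted p under 0.05, as did 18.5% of all genes. With voom on the recovered reads, 0.353% of all genes and none of the members were called. Over the 10 genes, 2 (Myc and Mga) were higher and 4 (Max, Mxd1, Mxd3 and Mnt) lower than NC without overlap. Among the 7 members tested, which leave out Mxd3, these were 2 and 3. Of all genes tested, 10.9% lay higher and 13.9% lower in this way (24.7% together).

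Mga had the largest difference of the network after SFRP2 siRNA by its unadjusted p. Its level was 8.41, 8.31 and 7.84 FPKM after SFRP2 siRNA, above each NC library. The log2 fold change was 0.25 (95% interval 0.10 to 0.40), with an unadjusted p of 0.00619 and an adjusted p of 0.178 in limma, and it was 0.12 after the GC and length correction. Myc was at 94.1, 93.9 and 98.1 FPKM after SFRP2 siRNA, with a log2 fold change of 0.05 (95% interval -0.05 to 0.15, adjusted p = 0.527, limma). After the GC and length correction the value for Myc was 0.16 (adjusted p = 0.243). Max was at 65.0, 60.2 and 62.3 FPKM, each below NC, with a log2 fold change of -0.09 (95% interval -0.19 to 0.02, adjusted p = 0.335, limma).

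Among the repressors after SFRP2 siRNA, Mxd1 was at 6.08, 5.95 and 4.35 FPKM. Its log2 fold change of -0.25 (95% interval -0.54 to 0.05, adjusted p = 0.331, limma) rested on the third library, without which it was -0.09. Mnt was at 9.51, 8.62 and 9.47 FPKM, with a log2 fold change of -0.10 (95% interval -0.24 to 0.04). Both lay below NC in each library. Mxi1 was at 4.74, 4.41 and 4.84 FPKM and overlapped with NC, with a log2 fold change of 0.01 (95% interval -0.14 to 0.17), and so did Mlx, at 26.9 to 27.9 FPKM with a log2 fold change of -0.08 (95% interval -0.22 to 0.05). Mxd3 ranged from 0.328 to 0.423 FPKM, below NC, and Mxd4 from 0.234 to 0.346 FPKM, overlapping with it. Mycn was at 63.7 ± 6.59 FPKM (log2 fold change -0.02, adjusted p = 0.908, limma). The ratio of Myc to Max was 1.53 ± 0.0685 against 1.39 ± 0.0159 in NC, for which an exact two-sided permutation test gave p = 0.1, the smallest that 3 libraries against 3 allow, and 0.5 after Benjamini-Hochberg adjustment over 10 sums and ratios.

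Genes that work with the network were read from 10 lists written by hand, with earlier results of these data known. Whether the differences of these genes depended on Myc was not tested. For Myc targets the lists held the direction known for Myc, activated or repressed. In the counts from these lists, genes said to have fallen or risen passed an adjusted p under 0.05 (limma). Targets activated by Myc were mostly lower after RAB6A siRNA, where 36.5% of all genes tested were called lower and 37.6% higher, around a median of 0.03 over all genes on the log2 scale. Of 36 nucleolar and ribosome biogenesis targets, 35 fell and 0 rose, with a median of -1.44. Exosc5 did not pass the test. Among the most expressed of them, Ncl, which encodes nucleolin of the nucleolus, fell from 395 ± 23.3 to 114 ± 23.4 FPKM (log2 fold change -1.81). The growth regulator Pa2g4 fell from 293 ± 5.23 to 104 ± 11.2 FPKM and the RNA helicase Ddx21 from 98.0 ± 2.43 to 34.7 ± 3.83 FPKM. Npm1, the abundant nucleolar chaperone nucleophosmin, was at 871 ± 17.3 FPKM in NC and 725 ± 69.0 FPKM after RAB6A siRNA. Its log2 fold change was -0.27, but -0.69 with quantile normalization and -0.12 after the GC and length correction, where its call was lost (adjusted p = 0.183, limma). The call of Npm1 was also lost with no filter and without RAB6A siRNA replicate 1 or any 1 of the NC libraries (adjusted p up to 0.114).

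Of 30 metabolic targets, 25 fell and 2 rose after RAB6A siRNA, and their median was -0.89 on the log2 scale. The mitochondrial chaperone Hspd1 fell from 305 ± 14.0 to 107 ± 11.7 FPKM and the glycolytic Pkm from 976 ± 61.7 to 721 ± 62.3 FPKM, a log2 fold change of -0.44 that was -0.83 with quantile normalization and -0.28 after the GC and length correction. Ldha, which makes lactate, and the glucose transporter Slc2a1 were the 2 that rose. For Ldha the log2 fold change of 0.22 became -0.12 with quantile normalization (adjusted p = 0.074, limma) and 0.49 after the GC and length correction, and its call was lost without NC replicate 1, NC replicate 2 or RAB6A siRNA replicate 2 (adjusted p up to 0.0636). Odc1, the polyamine enzyme long used as an example of a Myc target, was at 1523 ± 90.1 FPKM in NC and at 1602 ± 116 FPKM after RAB6A siRNA (adjusted p = 0.493, limma), a log2 fold change of 0.07 that was -0.08 with quantile normalization and 0.38 (adjusted p = 0.00307) after the GC and length correction. Eno1 and Hspe1 did not pass the test either. Of 21 targets of the cell cycle and translation, 16 fell and 2 (E2f2 and Tert) rose, with a median of -0.82. The initiation factor Eif4g1 fell by 1.51 on the log2 scale and the G1 kinase Cdk4 by 0.68.

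Targets that Myc represses were mostly higher. Of the 11 that passed the filter, 7 rose and 3 fell, where 37.6% of all genes tested were called higher and 36.5% lower. Their median log2 fold change was 1.05, or 0.56 when genes under the filter were kept. The cyclin kinase inhibitor Cdkn1a rose from 116 ± 4.53 to 254 ± 18.5 FPKM, the stress transcription factor Ddit3 from 15.9 ± 0.785 to 63.5 ± 5.35 FPKM, and Ndrg2 from 15.1 ± 0.569 to 31.3 ± 2.15 FPKM. Those that fell were Gadd45a, Cebpa and Tfe3, and Cdkn2c did not pass the test. Several genes of these lists, such as Npm1, Eif4a1, Ldha and Hspd1, have many processed pseudogenes with which the counting may have shared reads.

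**Figure D4:**
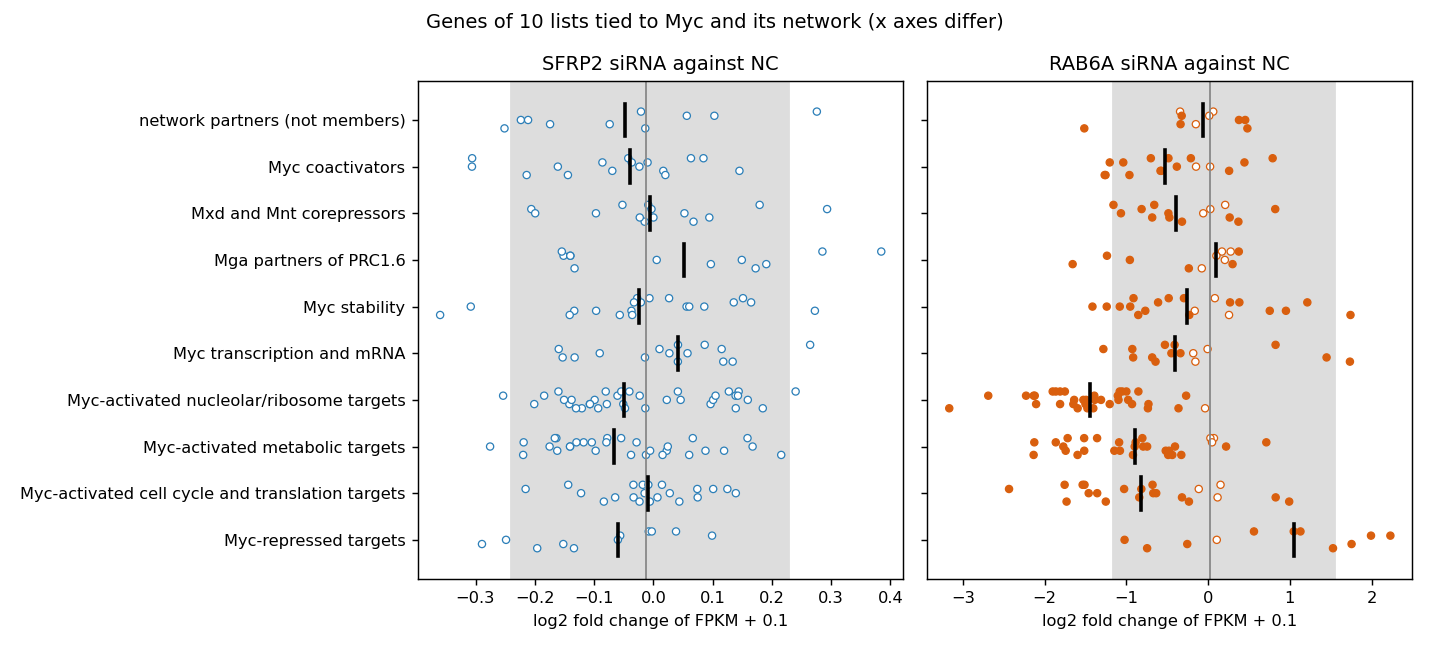
Log2 fold change of FPKM + 0.1 (x axes, which differ) of each gene in the 10 lists, after SFRP2 siRNA on the left and RAB6A siRNA on the right. Filled points passed an adjusted p under 0.05, black bars are list medians, the grey line is the median of all genes tested and the grey band spans their 10th to 90th percentile. After RAB6A siRNA the median of the nucleolar list lies at -1.44 and that of the repressed list at 1.05, and no point is filled after SFRP2 siRNA.

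Among the cofactors, more coactivators and corepressors fell than rose after RAB6A siRNA, against 36.5% of all genes lower and 37.6% higher, while the partners of Mga and the further partners were divided. Of 16 Myc coactivators, 11 fell and 3 rose (median log2 fold change -0.53). Here the bromodomain gene Brd2 fell by 1.04, Hcfc1, a cofactor bound by MYC, by 1.25 and the chromatin helicase Ruvbl1 by 1.26 on the log2 scale. Of 14 corepressors of the MXD proteins and MNT, 8 fell and 3 rose (median -0.40), but 7 fell and 6 rose after the GC and length correction (median -0.09). Hdac1, a histone deacetylase of the SIN3 complex, fell by 1.07 and its partner Rbbp7 by 0.81, or by 0.53 after that correction. Of 11 partners of Mga in PRC1.6, 4 fell and 2 rose (median 0.10), or 3 fell and 5 rose after that correction (median 0.28). Tfdp1, the partner of E2F factors, fell by 1.66 and the histone methyltransferase Ehmt2 rose by a log2 fold change of 0.38. The list of 10 further partners was divided, with 3 higher and 3 lower, and its median of -0.07 was 0.04 with quantile normalization. Mycn, Mlxip, Usf2 and Mycbp did not pass the test, though Usf2 did with median-of-ratios scaling (log2 fold change -0.20, adjusted p = 0.0408, limma) and without RAB6A siRNA replicate 3 (adjusted p = 0.0498). The zinc finger gene Maz fell by 0.34, or by 0.22 with quantile normalization.

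Genes that act on MYC protein or on the Myc gene and its mRNA moved in both directions, against 36.5% of all genes lower and 37.6% higher. Of 20 genes of MYC stability, 11 fell and 6 rose (median log2 fold change -0.26, or -0.15 with quantile normalization). Pim1, a kinase that stabilizes MYC, rose from 56.4 ± 2.34 to 109.8 ± 14.3 FPKM, while Aurka, a kinase that protects MYCN, fell by 1.41 and the ubiquitin ligase Huwe1 by 1.08 on the log2 scale. Of 15 genes of Myc transcription and mRNA past the filter, 9 fell and 3 rose (median -0.41, or -0.15 after the GC and length correction). Zfp36, which encodes the mRNA decay factor tristetraprolin, rose from 157 ± 8.15 to 428 ± 12.0 FPKM. Cnbp, a factor that binds the Myc promoter, fell by 0.53, or by 0.24 after the GC and length correction. Igf2bp2, an mRNA-binding protein, did not pass the test (log2 fold change -0.18, adjusted p = 0.0995, limma), but did without RAB6A siRNA replicate 3 (-0.27, adjusted p = 0.00861), and was 0.09 after the correction.

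After SFRP2 siRNA, 0 genes of the 10 lists were called. The list medians lay between -0.07 and 0.05 on the log2 scale, and that of all genes was -0.01. An unadjusted p under 0.05, which 18.5% of all genes had, was found for 10 of 36 nucleolar, 10 of 30 metabolic, 3 of 21 cell cycle and translation and 1 of 11 repressed targets. It was found for 5 of 16 coactivators, 2 of 14 corepressors, 5 of 12 partners of Mga and 3 of 10 further partners, and for 3 of 20 genes of MYC stability and 3 of 15 of Myc transcription and mRNA. Pkm (log2 fold change -0.22, adjusted p = 0.202, limma) and Ldha (-0.17, adjusted p = 0.192) were among the metabolic genes with lower values.

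Genes were also divided by the E-box of the promoters described above. Of 1025 genes tested after RAB6A siRNA with CACGTG in the promoter, 48% were called lower and 29.2% higher, with a median log2 fold change of -0.22. Of 7459 genes without the motif, 40.6% were lower and 35.3% higher, with a median of -0.05. Genes without a promoter in the table were left out, and these values were not corrected for GC content and gene length. The cause of the difference between genes with and without the motif was not tested. Among the members with the motif, Max and Mlx were lower, and Mnt and Mxd4 higher. Of the nucleolar targets 9 of 30 with a promoter in the table held the motif, of the metabolic targets 5 of 26, of the cell cycle and translation targets 6 of 19 and of the repressed targets 2 of 12. After SFRP2 siRNA, the medians were -0.02 with and -0.01 without the motif.

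Of 12542 genes with a mean of at least 0.5 FPKM over the 9 libraries, the profile most like that of Myc belonged to Peak1os, a noncoding gene, at a Euclidean distance of 0.611 on the log2 scale (Pearson r = 0.99 over 9 libraries). Tlr13, a receptor of bacterial ribosomal RNA, Zfp764, a zinc finger gene, A2m, a protease inhibitor, and Gpr84, a receptor of medium-chain fatty acids, followed at distances of 0.666 to 0.902. All 5 had NC levels below that of Myc, from 1.69 FPKM for A2m to 30.7 FPKM for Gpr84. After RAB6A siRNA, Gpr84 was at 1.20, 1.62 and 1.42 FPKM, and Tlr13 at 0.524, 0.602 and 0.780 FPKM against 13.0 ± 0.213 in NC. A2m had 2 to 4 reads per RAB6A siRNA library, and Zfp764 had 12 to 17 reads at a mean of 0.160 FPKM. The mean of A2m was 140-fold lower than in NC, against 15.15-fold for Myc. The 0.1 added before the logarithm thus brought A2m nearer to Myc. The likeness rests on the 3 RAB6A siRNA libraries shared by all of these genes and is given as a description.

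**Figure D5:**
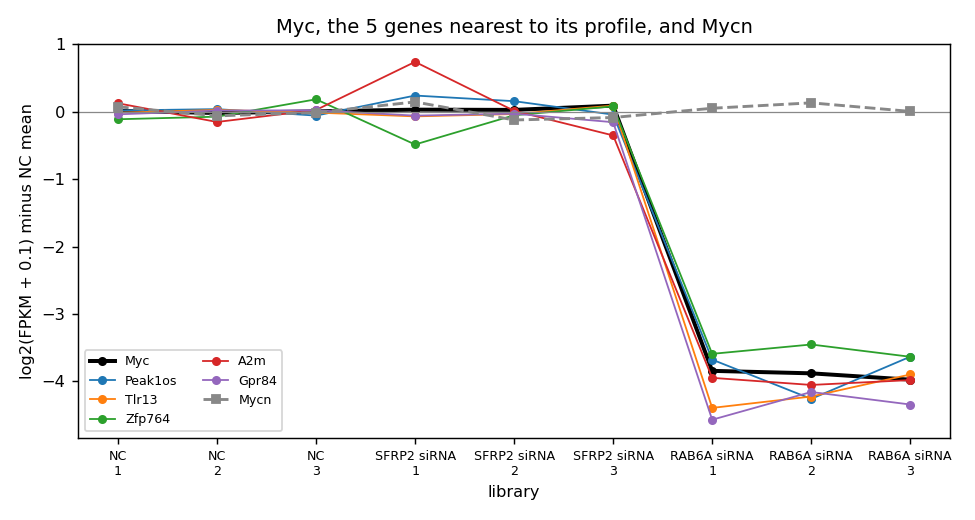
Log2(FPKM + 0.1) minus its NC mean (y axis) in each of the 9 libraries (x axis) for Myc, the 5 genes nearest to its profile and Mycn (dashed). Myc and the 5 genes lie near 0 in NC and low in the 3 RAB6A siRNA libraries, where Mycn stays near 0.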

How the data were processed

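RNA of RAW264.7 cells was sequenced as paired-end mRNA libraries, 3 per group, grouped by the treatment labels. The authors deposited FPKM per gene, that is, fragments per length of gene and size of library. The submitters' processing notes name HISAT2, featureCounts and Subread. Genome build, annotation and strand setting are not given in the sources used here. Of 28137 Ensembl genes, 27533 were named from GENCODE M21 (GRCm38), which also gave exon lengths.

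FPKM times exon length gave whole reads within 0.03 of a read in all libraries for 27084 genes (98.4%), which gave depth and reads per gene. Reads carry no molecular identifiers. Log2(FPKM + 0.1) was tested with limma 3.58.1 in R 4.3.3 (eBayes with trend) for genes with a mean of at least 0.5 FPKM over the 6 libraries compared, with Benjamini-Hochberg adjustment over all genes tested. The study's methods name a count model, and the study reported differentially expressed genes after SFRP2 siRNA in RAW264.7 cells. The deposited values are not counts, and that model was not run here. Fold changes are on this scale and understate those of low genes. Ratios were compared by exact permutation tests in scipy 1.17.1.

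Members and lists were chosen with earlier results of these data known. Named genes were all members, Rab6a, Sfrp2, Pvt1, the 4 most expressed genes of each list in NC and the 5 genes nearest to Myc in profile. Other genes were named after their values were seen, as the exceptions of a list. Alternatives were other pseudocounts, filters and scalings, a fit without trend, a replicate block, all 9 libraries in 1 fit and single libraries left out. Chosen after seeing the data were voom on the recovered reads and a GC and length correction by splines with 5 degrees of freedom. SFRP2 siRNA and RAB6A siRNA were compared with the same NC libraries.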

Additional observations from a re-analysis of the deposited data

How the results depend on the processing

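After SFRP2 siRNA no gene was called under any alternative with all 6 libraries other than voom. The count was 0 to 1 when single libraries were left out (1 without NC replicate 1), and likewise 0 to 1 for genes called with an absolute log2 fold change over 1, and voom called 42 and 2. No member was called under any alternative. Mxi1 changed sign, with a range of -0.0181 to 0.0532 without single libraries, and Mnt was 0.0166 after the GC and length correction. After RAB6A siRNA 8445 to 10934 genes and 5 to 7 members were called over 17 alternatives. Mlx was not called with quantile normalization or the GC and length correction. Mga was called with that correction, and Mycl when no filter was set. With a pseudocount of 1, 2389 genes passed both thresholds, against 3829, since this pseudocount shrinks the fold changes of low genes. The log2 fold change of Myc ranged from -3.95 to -3.72. For some genes, values that moved with quantile normalization or the GC and length correction are given beside them, and the cause was not tested. Others moved as well without a mention there. After RAB6A siRNA, Zfp36 went from 1.45 to 1.03 and Hspd1 from -1.52 to -1.87 with quantile normalization. Hdac1 went from -1.07 to -0.78 and Ddx21 from -1.50 to -1.17 after the GC and length correction. Over the alternatives, Mxi1 ranged from 0.83 to 1.23 and Mxd1 from 0.73 to 1.09. No alternative moved the median of all genes by over 0.1. Same-numbered libraries of the 2 groups did not deviate together (r from -0.0668 to 0.0477), so replicate numbers were not taken as pairs. With the replicate block 0 genes were called after SFRP2 siRNA and 9103 after RAB6A siRNA. Depth limits Mycl, Mxd3 and Mxd4, and with 3 libraries a group, differences of the size seen after SFRP2 siRNA may be missed.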
